A study of Mus musculus with 11 samples.

Results

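Cathepsins are the proteases of the lysosome, and cystatin C is the secreted inhibitor that binds most of them outside the cell. The 10 genes described here were chosen by name from the 54232 rows of the count table. They are Ctsb, Ctsc, Ctsh, Ctsk, Ctsl, Ctss and Ctsz, which encode cysteine cathepsins, Lgmn, which encodes the asparaginyl endopeptidase legumain, Ctsd, which encodes an aspartic cathepsin, and Cst3, which encodes cystatin C. All 10 were measured in every library and passed the filter on low counts, so that none was lost from any comparison. RNA was sequenced in bulk from 11 orthotopic pancreatic tumors, 6 of PKN2 KO hosts, named by the letters A to F, and 5 of PKN2 WT hosts, named A to E. Every tumor grew from 1000 TB32048 cells, a female mouse pancreatic carcinoma line with intact Pkn2, placed in the pancreas of a C57BL/6 host. Per the study's methods, the hosts were female, 24 to 28 weeks old and heterozygous for RosaCreERT2, with Pkn2 fl/fl in the KO group and Pkn2 +/+ in the WT group, and both groups received 5 injections of tamoxifen. The Rosa26 driver acts throughout the host, so the deletion was not limited to fibroblasts, and a single carcinoma line was used.

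Cysteine cathepsins are made as inactive precursors, carried to the lysosome by mannose 6-phosphate receptors, and activated there at low pH. In pancreatic carcinoma they are known both inside macrophages and tumor cells and, once secreted, as enzymes that cut collagens, laminin and E-cadherin at the invasive front. Cystatin C blocks the papain-like cathepsins and, through a separate site, legumain, but not the aspartic protease cathepsin D.

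Library totals ranged from 16294128 to 31121422 counts, and the smallest raw count of any of the 10 genes in any library was 767, for Ctsk. Levels are given as CPM, library-scaled counts after TMM normalisation. Pkn2 itself stood at 80.1 to 108 CPM in KO tumors and 62.9 to 138 CPM in WT tumors, which differed by -0.0023 ± 0.21 on the log2 scale (SE; adjusted p = 0.996 in edgeR). Gene-level counts of whole tumors include the Pkn2 transcripts of the implanted cells, so they do not check the deletion. WT replicates A, B and C had 1.31%, 6.39% and 1.40% of their counts in ribosomal RNA genes, against 0.241% to 0.765% in the other 8 libraries. WT replicate E stood apart in pancreatic acinar markers, with a summed level of 1721 CPM over 8 genes, and KO replicate E had 617 CPM, against at most 183 CPM elsewhere.

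Promoter sequences from RefSeq (GRCm38.p6), running from 250 bases before to 50 bases after a transcription start, matched 8 of the 10 genes, and Ctsb and Ctsh had no entry. The promoters of 3 genes are printed, those of Ctsc and Ctss, the genes with the largest KO difference in level and the smallest p relative to Cst3, and that of Ctsd. Capitals mark GAGGAAGT or its reverse complement ACTTCCTC, a sequence that the myeloid factor PU.1 is known to bind, and CACGTG, the core of the element recognised by TFEB, TFE3 and MITF in lysosomal genes.

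Ctsc, chr7:88277835-88278134 (+): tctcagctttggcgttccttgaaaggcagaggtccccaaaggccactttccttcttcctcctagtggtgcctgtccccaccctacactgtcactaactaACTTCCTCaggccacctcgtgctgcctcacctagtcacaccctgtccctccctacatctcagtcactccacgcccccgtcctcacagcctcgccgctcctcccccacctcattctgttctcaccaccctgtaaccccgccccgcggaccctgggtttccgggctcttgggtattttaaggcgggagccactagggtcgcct
Ctss, chr3:95526536-95526835 (+): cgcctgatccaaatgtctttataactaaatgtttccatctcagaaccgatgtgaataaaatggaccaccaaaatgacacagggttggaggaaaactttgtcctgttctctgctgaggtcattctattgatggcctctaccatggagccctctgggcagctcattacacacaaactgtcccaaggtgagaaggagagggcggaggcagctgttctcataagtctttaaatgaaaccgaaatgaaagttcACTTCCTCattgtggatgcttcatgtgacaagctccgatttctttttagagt
Ctsd, chr7:142387778-142388077 (-): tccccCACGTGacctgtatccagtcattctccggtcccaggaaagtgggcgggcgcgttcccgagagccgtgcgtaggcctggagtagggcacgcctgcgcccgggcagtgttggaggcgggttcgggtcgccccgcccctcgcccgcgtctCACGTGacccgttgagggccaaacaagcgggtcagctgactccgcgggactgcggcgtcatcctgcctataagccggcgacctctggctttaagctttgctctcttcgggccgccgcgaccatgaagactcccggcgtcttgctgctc

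Searched on both strands, GAGGAAGT was found in the promoters of 2 of the 8 genes, Ctsc at position -151 and Ctss at position -2, and in 3.20% of 32851 mouse promoters. CACGTG was found in 3 of the 8 genes and in 7.15% of all promoters. Ctsd carried it at positions -245 and -98, Ctsl at position -236, and Lgmn at position -49 of the second of its start sites. The longer TCACGTGA, which contains CACGTG, was found in Ctsd and in 0.974% of all promoters. A repeat of GAAA separated by 2 bases, which interferon regulatory factors are known to bind, was found in Ctss and in 3.44% of all promoters. These motifs were picked after the expression values were seen, and a match describes letters in this window, not occupancy.

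Per kilobase of its principal transcript, Cst3 had the highest level of the 10 genes, at 814 ± 301 CPM per kb (SD, n = 11), and Ctsk, the collagen-cutting cathepsin of osteoclasts and fibroblasts, the lowest, at 39.3 ± 11.7. Ctss, a cathepsin of antigen-presenting cells, followed Cst3 at 633 ± 217 CPM per kb. Ctsz, Ctsb, Ctsd, Ctsc, Lgmn and Ctsh lay between 279 and 167 CPM per kb in that order, and Ctsl stood at 78.8 ± 20.2 CPM per kb. Between neighbours in this order, only 3 steps exceeded the spread across tumors, those from Ctss to Ctsz (higher in 11 of 11 tumors), from Ctsh to Ctsl (11 of 11) and from Ctsl to Ctsk (10 of 11). The order of Cst3 and Ctss, and the order from Ctsz to Ctsh, did not exceed the spread. With the summed length of all annotated exons in place of the principal transcript, Ctss came first and Cst3 second. Ctsh (60.1 CPM per kb) then fell to ninth place, below Ctsl (74.9), so the step from Ctsh to Ctsl depended on the choice of length. Under both lengths Ctsz kept rank 3 and Ctsk rank 10. Ctsl was the longest of the 10 genes under both, at 6168 and 6489 bases, and no shorter transcript was tried.

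**Figure D1:**
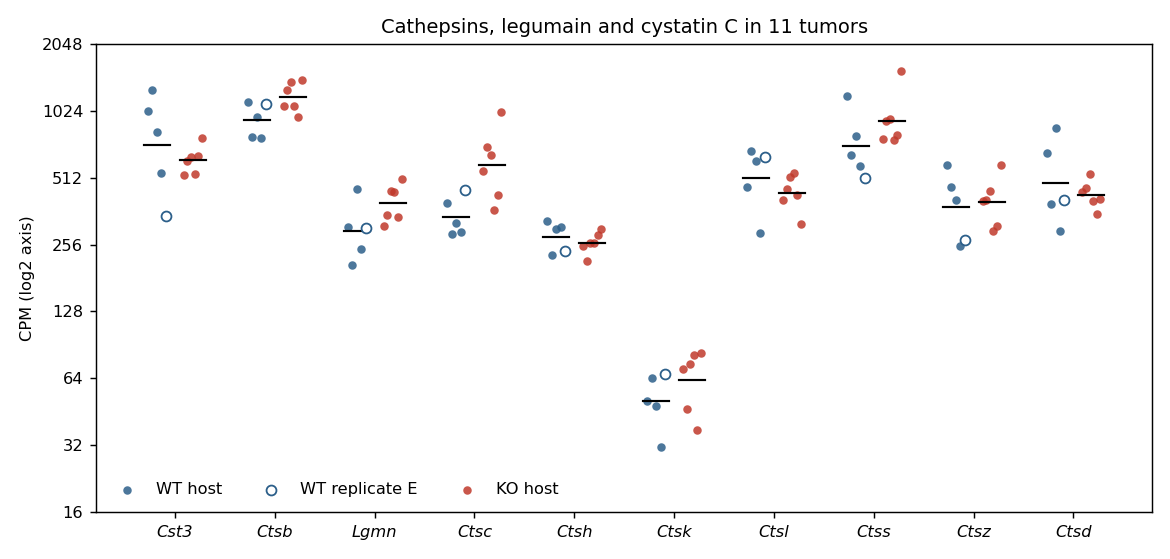
CPM (log2 axis) of the 10 genes in each of 6 KO tumors (red) and 5 WT tumors (blue; open circle, WT replicate E), with the geometric mean as a bar. KO and WT points overlap for every gene, Ctsc shows the widest offset between the group means, and the WT points of Cst3 spread from 343 to 1265 CPM.

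The main comparison asked which of these genes differed between tumors of KO and WT hosts. None of the 10 passed an adjusted p of 0.05 in edgeR (0.0181% of the 16536 tested genes were called higher and 0% lower), and 1 of 10, Ctsc, was higher at an unadjusted p under 0.05 (8.57% of all tested genes were higher and 15.5% lower at that level). DESeq2 called 1 of the 10, again Ctsc (3.21% of its genes were called higher). With an offset for gene length, or without WT replicates A, B and C, 4 of the 10 were higher at an unadjusted p under 0.05 in edgeR (8.54% and 8.21% of all tested genes), and again none passed the adjusted threshold. The log2 fold change, KO over WT, was above 0 for 6 of the 10 genes, with a median of 0.19, against 48% and a median of -0.03 over all tested genes. No gene of the 10 had KO and WT groups that did not overlap, a state reached by 1.59% of all tested genes upward and 2.01% downward. In whole tumors, fewer cells of a type and less RNA per cell cannot be told apart.

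Among the exopeptidases, Ctsc showed the largest difference. Ctsc (chromosome 7, 88278085 to 88310888, + strand, GRCm38) encodes cathepsin C, the dipeptidyl peptidase that activates the granule serine proteases of neutrophils, mast cells and cytotoxic lymphocytes. In KO tumors it had a lowest level of 368 CPM, a median of 598 CPM and a highest level of 1011 CPM. WT replicates A to E had 395, 284, 319, 291 and 451 CPM. In all, 4 of the 6 KO tumors were above every WT tumor, and KO replicates D and E lay within the WT range. The log2 fold change was 0.83 ± 0.26 (SE; edgeR, unadjusted p = 0.00687, adjusted p = 0.106), and 15% of all tested genes had a change at least as large in either direction. The adjusted p was 0.0321 in DESeq2 and 0.0474 in edgeR without WT replicate E, the WT tumor with the highest Ctsc (3.63% of genes were called higher in that fit). The fold change stayed between 0.63 and 0.94 when any single tumor was left out, and was 0.74 ± 0.37 (edgeR, adjusted p = 0.338) without WT replicates A, B and C.

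Ctsb (chromosome 14, 63122462 to 63145923, + strand) encodes cathepsin B, which trims dipeptides from carboxyl ends and also cuts within proteins. Its levels in KO tumors ran from 957 CPM through a median of 1179 CPM to 1415 CPM. In WT replicates A to E it stood at 1119, 780, 966, 773 and 1099 CPM. In all, 3 KO tumors were above every WT tumor, and the log2 fold change of 0.34 ± 0.19 did not pass (edgeR, adjusted p = 0.282; DESeq2, adjusted p = 0.196). Exons of Ctsb overlap Fdft1 on the opposite strand, a gene with 930 to 2110 counts per library, while Ctsb had at least 9342. Ctsz (chromosome 2, 174427493 to 174439039, - strand), which encodes the carboxypeptidase cathepsin Z, ranged from 295 to 582 CPM in KO tumors and from 253 to 584 CPM in WT tumors. Its log2 fold change was 0.04 ± 0.25, with a sign that changed with the tumor left out. Ctsh (chromosome 9, 90054152 to 90076089, + strand), which encodes an aminopeptidase, was the steadiest of the 10, with a 1.52-fold range over the 11 tumors and a log2 fold change of -0.10 ± 0.15.

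The endopeptidases had a wider spread than difference. Ctss (chromosome 3, 95526786 to 95556403, + strand) encodes cathepsin S, which cuts the invariant chain from MHC class II molecules and keeps its activity at neutral pH. KO tumors ran from 753 CPM through a median of 858 CPM to 1542 CPM, and WT replicates A to E had 1198, 649, 785, 581 and 508 CPM. A single tumor in each group, KO replicate F and WT replicate A, stood well above the others. The log2 fold change of 0.36 ± 0.27 (edgeR, adjusted p = 0.421) became 0.17 without KO replicate F, 0.60 without WT replicate A and 0.81 without WT replicates A, B and C, in no case with an adjusted p under 0.05. Ctsk (chromosome 3, 95499256 to 95509362, + strand) lies 17423 bases from Ctss and had an r of 0.15 with it over 11 tumors. Ctsk ranged from 37.5 to 83.0 CPM in KO tumors and from 31.4 to 66.6 CPM in WT tumors. Its log2 fold change was 0.33 ± 0.25, and 0.59 with the gene length offset. Ctsl (chromosome 13, 64359337 to 64370890, - strand), which encodes the broadly acting cathepsin L, ranged from 318 to 537 CPM in KO tumors and from 290 to 675 CPM in WT tumors. Its log2 fold change was -0.27 ± 0.23 (-0.50 with the gene length offset), and 3 of 5 WT tumors were above every KO tumor.

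Lgmn (chromosome 12, 102394084 to 102439813, - strand) encodes legumain, which cuts after asparagine and processes several cathepsins into their mature chains. It ran from 310 CPM through a median of 395 CPM to 504 CPM in KO tumors. WT replicates A to E had 308, 206, 456, 245 and 304 CPM. In all, 4 of 5 WT tumors were below every KO tumor, with WT replicate C as the exception. The log2 fold change of 0.39 ± 0.22 did not pass (edgeR, adjusted p = 0.287), and it was 0.52 with the gene length offset. Ctsd (chromosome 7, 142375911 to 142388038, - strand) ranged from 350 to 534 CPM in KO tumors and from 294 to 857 CPM in WT tumors. Its log2 fold change of -0.27 ± 0.26 was -0.02 without WT replicate C, which had the highest level, and 0.31 without WT replicates A, B and C.

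Cst3 (chromosome 2, 148871722 to 148875692, - strand) varied most, with a 3.69-fold range over the 11 tumors, and both ends of that range were WT tumors. KO tumors ran from 529 CPM through a median of 621 CPM to 770 CPM, and WT replicates A to E had 1020, 1265, 822, 537 and 343 CPM. The 3 WT tumors above every KO tumor were the 3 with over 1% of their counts in ribosomal RNA genes, while WT replicate E was below every KO tumor. The log2 fold change was -0.36 ± 0.29 (edgeR, adjusted p = 0.444). It was 0.02 ± 0.26 with a covariate for ribosomal RNA share, 0.08 ± 0.18 with an offset for gene length, and 0.50 ± 0.21 without those 3 libraries, so its direction depended on how they were treated. Leaving out 1 tumor moved it between -0.55 (WT replicate E) and -0.14 (WT replicate B).

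**Figure D2:**
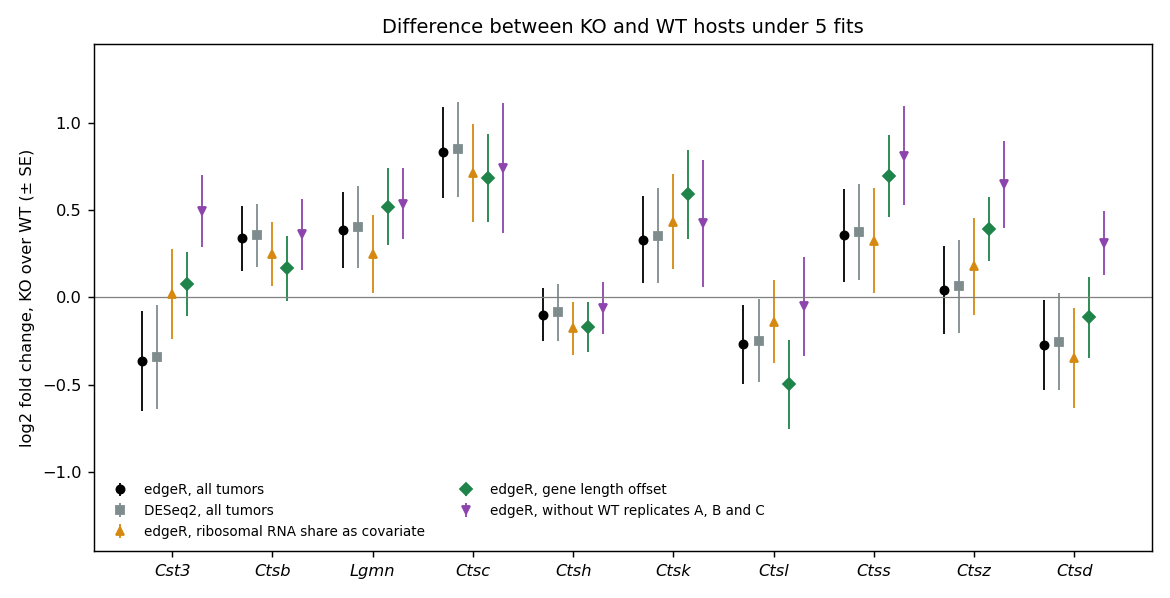
Log2 fold change, KO over WT, with its SE for each of the 10 genes under 5 fits. Ctsc lies between 0.68 and 0.85 in all 5, whereas Cst3 runs from -0.36 to 0.50 and Ctsd from -0.35 to 0.31.

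Relative to the inhibitor gene, each tumor gives 1 ratio of protease counts to Cst3 counts that needs no scaling for library depth. The ratio keeps any trend of a library with gene length, and Cst3 has the shortest principal transcript of the 10 genes, 860 bases. With the gene length offset, log2 fold changes were 0.08 for Cst3, 0.17 for Ctsb, 0.68 for Ctsc and 0.69 for Ctss. The KO minus WT difference in mean log2 ratio was above 0 for all 8 genes compared, the 7 cysteine cathepsins and Lgmn, though it was 0.01 for Ctsl and 0.14 for Ctsh and turned for both when single tumors were left out. None passed the exact two-sided permutation test over all splits of the tumors after adjustment over the 8 (smallest p the test can give, 0.00216). The 8 ratios share the same Cst3 counts and are not independent. The Ctss ratio had the smallest p, with 1.24 to 2.00 Ctss counts per Cst3 count in KO tumors and 1.17, 0.513, 0.955, 1.08 and 1.48 in WT replicates A to E. In all, 3 KO tumors were above every WT tumor, and the difference was 0.61 on the log2 scale (exact permutation p = 0.0130, adjusted p = 0.104). The Ctsc ratio ran from 0.668 to 1.31 in KO tumors and was 0.387, 0.225, 0.388, 0.543 and 1.31 in WT replicates A to E, a log2 difference of 1.01 (exact permutation p = 0.0563, adjusted p = 0.225). Every KO tumor was above WT replicates A to D, and WT replicate E matched the highest KO tumor. The Ctsb ratio ran from 1.49 to 2.18 in KO tumors and was 1.10, 0.616, 1.17, 1.44 and 3.20 in WT replicates A to E (log2 difference 0.57, adjusted exact permutation p = 0.260).

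WT replicate E had the highest WT ratio for all 8 genes. Without it, 5 of the 8 ratios passed (Ctsb, Ctsc, Ctsk, Ctss and Lgmn), with log2 differences of 0.90, 1.37, 0.92, 0.76 and 0.93 and adjusted exact permutation p-values of 0.0127 to 0.0229. For Ctsb, Ctsc and Ctss, WT replicate E was the only WT tumor not below every KO tumor. Leaving it out therefore separated the groups for these 3 genes and gave the smallest p that test can give. WT replicates A, B and C were among the WT tumors that remained. Without WT replicates A, B and C, the differences were smaller or below 0, at 0.17 for Ctsc, 0.25 for Ctss, 0.00 for Lgmn and -0.15 for Ctsb, and 0 of 8 passed in a test whose smallest p is 0.0357. WT replicate E had the lowest ribosomal RNA share and the highest acinar marker sum of the 11 tumors, and WT replicates A, B and C the 3 highest ribosomal RNA shares. The part of either in the ratios was not tested.

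**Figure D3:**
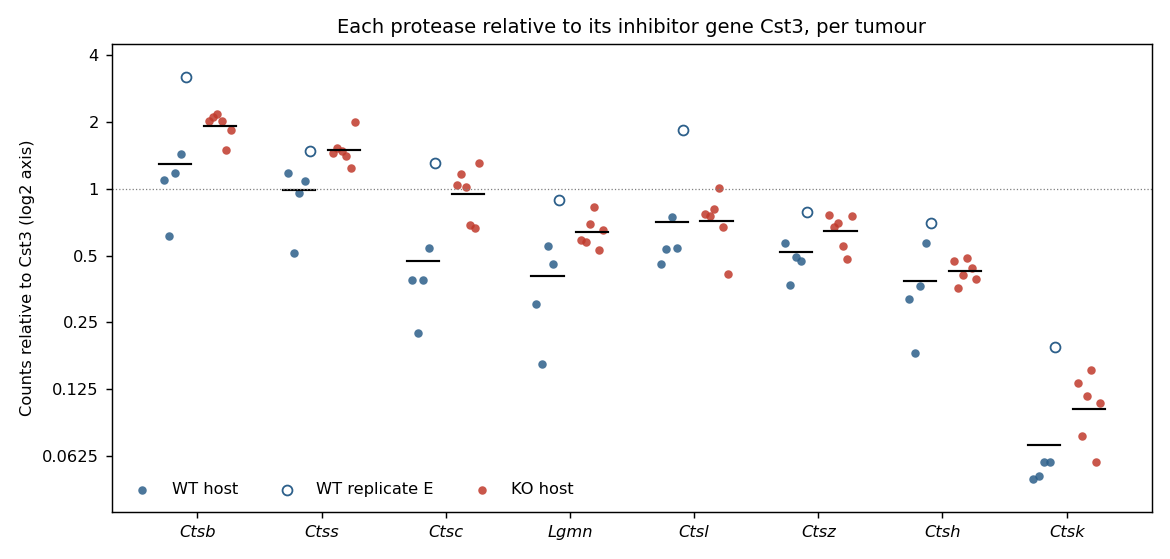
Counts of each protease gene relative to Cst3 counts in the same tumor (log2 axis; bar, geometric mean; open circle, WT replicate E). All 6 KO points lie above WT replicates A to D for Ctsb, Ctsc and Ctss, and WT replicate E is the highest WT point for all 8 genes.

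The rest of the lysosomal pathway was read from the same fit, in which 8.57% of all tested genes were higher and 15.5% lower at an unadjusted p under 0.05. Counts from other fits are to be read against the share of all tested genes called there. It was 5.14% higher and 6.63% lower with the ribosomal RNA covariate. With the gene length offset it was 8.54% higher, and 2479 of 16527 genes were lower. It was 13% higher and 19.1% lower without WT replicate E, and 8.21% higher and 9.01% lower without WT replicates A, B and C. Fits without 1 KO tumor, or without WT replicate A, B or C alone, tested 16345 to 16778 genes. In these, 1095 to 1442 genes were higher and 1607 (without WT replicate B) to 2547 lower. The share without WT replicate D is not given, so counts from that fit have no background to be read against and are not read as differences. The hydrolase list held 33 other lysosomal genes, of which Npc2, Psap and Gm2a do not encode hydrolases. Their median log2 fold change was 0.32 against -0.03 over all tested genes. At an unadjusted p under 0.05, 12 of the 33 genes, Psap among them, were higher in KO tumors and 0 lower. None passed an adjusted p of 0.05 in edgeR, and 4 of them did in DESeq2. Man2b1, which encodes lysosomal alpha-mannosidase, stood at 250 ± 43.9 CPM in KO tumors (SD, n = 6) and 144 ± 48.3 CPM in WT tumors (n = 5). The count of 12 was 5 with a covariate for ribosomal RNA share, 9 without WT replicates A, B and C, and from 5 (without KO replicate F or WT replicate B) to 13 when 1 tumor was left out. It was 6 without KO replicate B or WT replicate A, 7 without KO replicate C or D, and 8 without KO replicate E. Against this list, the median of the 10 cathepsin and cystatin genes was 0.19.

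Genes that tag enzymes for the lysosome or carry them there showed 4 of 8 higher and 0 lower at that level, with a median of 0.53. Lrp1, an endocytic receptor for secreted proteases, had a log2 fold change of 0.98 ± 0.27, and Sort1, the sorting receptor sortilin, 1.37 ± 0.43 (edgeR, adjusted p = 0.0928 and 0.108). Among lysosomal membrane genes, 5 of 10 were higher and 1 lower (2 higher and 1 lower with the ribosomal RNA covariate), with the cholesterol transporter Npc1 at 0.88 ± 0.20 and the calcium channel Mcoln1 at -0.54 ± 0.15. The V-ATPase, which acidifies the lysosome, had 4 of 18 genes higher, 3 lower and a median of -0.21. With the ribosomal RNA covariate 0 were higher and 0 lower. Its subunits Atp6v1f and Atp6v1e1 had log2 fold changes of -0.89 ± 0.32 and -0.59 ± 0.21, and the list's median was 0.21 without WT replicates A, B and C. Of 4 MiT/TFE regulators, 2 were higher, Tfe3 at 0.47 ± 0.16 and Mitf at 0.54 ± 0.22, and the count was 0 with the gene length offset and 3 without WT replicates A, B and C. None of these genes passed an adjusted p of 0.05 in edgeR, while DESeq2 called 3 targeting genes and 2 membrane genes higher and 1 membrane gene lower (3.21% of its genes were called higher and 4.85% lower). With 1 tumor left out, the membrane count was 3 without KO replicate F, the regulator count was 1 without KO replicate B, C or F or WT replicate C, D or E, and the V-ATPase counts ran from 1 (KO replicate C or F, or WT replicate B) through 2 (KO replicate B or WT replicate A) to 4 higher and from 1 (WT replicate B) to 6 (WT replicate D or E) lower.

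The substrates of cathepsin C included the largest fold changes of any list. Of 8 granule proteases that it activates, 4 were higher at an unadjusted p under 0.05 and 0 lower, with a median of 0.75. The log2 fold change was above 0 for 6 of the 8. It was below 0 for the granzyme genes Gzma (-0.76 ± 0.72) and Gzmk (-0.51 ± 0.44). Elane, neutrophil elastase, stood at 35.8 ± 27.9 CPM in KO tumors and 1.26 ± 1.63 CPM in WT tumors, and Prtn3, proteinase 3, at 35.2 ± 25.4 and 3.77 ± 3.36 CPM (edgeR, adjusted p = 0.0786 and 0.0847). The groups overlapped for both genes. The lowest KO level was 2.54 CPM for Elane and 3.14 CPM for Prtn3, and the highest WT level 3.75 and 9.26 CPM. Elane had 0 counts in 1 library, a WT tumor. Ctsg, cathepsin G, had a log2 fold change of 2.54 ± 0.94, with a lowest KO level of 3.91 CPM and a highest WT level of 13.3 CPM. DESeq2 called 2 of the 8 at its adjusted threshold, Elane and Prtn3. The summed level of 7 neutrophil markers ran from 273 to 2257 CPM in KO tumors and from 159 to 1009 CPM in WT tumors. S100a8 and S100a9 had the highest means of the 7 in KO tumors, at 426 and 739 CPM. KO replicate F, which had the highest Ctsc, had the lowest neutrophil sum of the KO group. The part of neutrophil content in these values was not tested.

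Partners of cathepsin S in antigen presentation had 1 of 7 genes higher, the class II transactivator Ciita at 1.14 ± 0.41, and 0 lower, with a median of 0.37. Next by p was H2-Ab1 at 0.56 ± 0.35. The count was 0 with the ribosomal RNA covariate, 2 with the gene length offset or without WT replicate A, and 3 (median 1.05) without WT replicates A, B and C.

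Of the 6 other cathepsins, 2 were higher and 0 lower, Ctsg and the carboxypeptidase Ctsa (0.39 ± 0.15). The count was 1 with the ribosomal RNA covariate, without WT replicates A, B and C, without KO replicate B, C or F, or without WT replicate A, and 3 without WT replicate C. Of 9 other inhibitors, 6 passed the edgeR filter, and 0 of these were called in either direction at an unadjusted p under 0.05, by edgeR or by DESeq2. DESeq2 also gave an adjusted p to the other 3 and called the stefin Stfa3 higher (adjusted p = 0.00656), at 0.955 CPM in KO tumors and 0.0599 CPM in WT tumors, a WT mean below the level of 3 counts. The stefin Stfa2 was at 1.85 ± 2.31 CPM in KO tumors and 0.375 ± 0.477 CPM in WT tumors, and Cstb, the cytosolic inhibitor cystatin B, had a log2 fold change of -0.54 ± 0.33. The edgeR count rested on the setting, with 3 of 6 higher with the ribosomal RNA covariate, with the gene length offset or without WT replicate B, 1 higher without KO replicate B or F, 1 lower without WT replicate D or E, and 7 of 8 higher without WT replicates A, B and C.

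**Figure D4:**
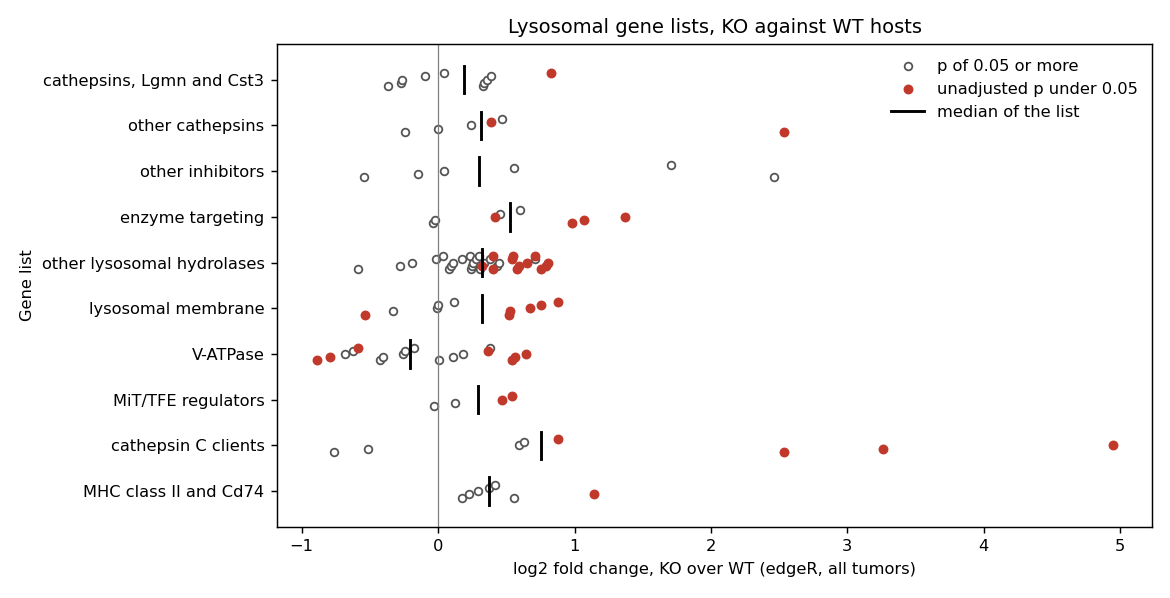
Log2 fold change, KO over WT, of every tested gene in the 10 lists (red, unadjusted p under 0.05; open, not; black line, median of the list). The medians of the hydrolase and enzyme targeting lists lie at 0.32 and 0.53, the V-ATPase genes fall on both sides of 0, and Elane is the point at 4.94.

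Across the 11 tumors, with the group means removed, 38 of the 45 pairs among the 10 genes had a Pearson r above 0, with a median of 0.30. The points share library depth and composition, so these values are descriptions. The highest were Ctss with Ctsz (r = 0.86), Ctsb with Ctsc (0.82) and Ctsz with Cst3 (0.78), and the lowest Ctsh with Ctsl (-0.59). Cst3, Ctss and Ctsz have the shortest summed exons of the 10 genes (1266, 1358 and 1441 bases). The part of gene length in these values was not tested. Cst3 was near 0 with Ctsb, Ctsc and Lgmn (-0.07, -0.04 and -0.03). KO replicate F was the highest tumor for 5 of the 10 genes, and WT replicate D the lowest for 5.

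**Figure D5:**
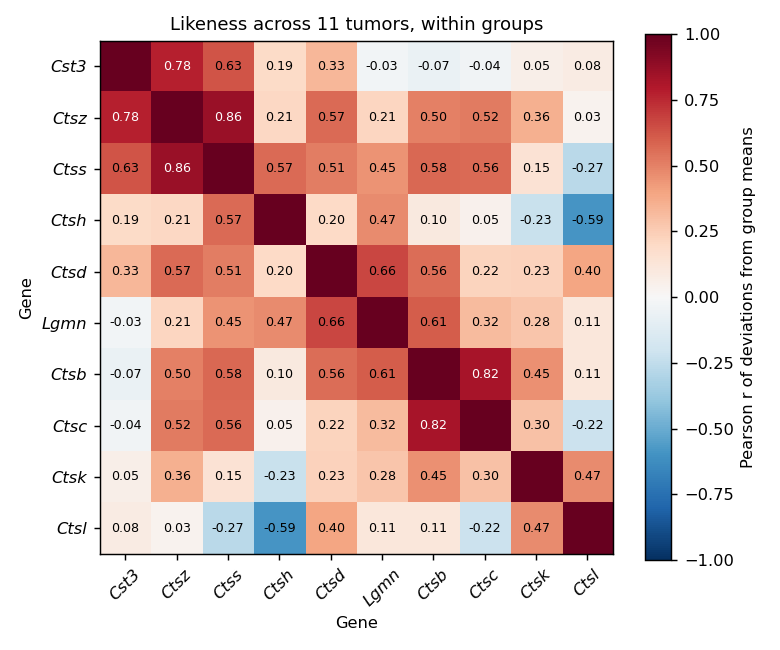
Pearson r between the 10 genes over 11 tumors, on deviations of log2(CPM + 0.5) from the group means. Ctss, Ctsz and Cst3 share values from 0.63 to 0.86, Ctsb and Ctsc share 0.82, and Ctsl has values below 0 with Ctsh, Ctss and Ctsc.

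The genes most like each of the 10 were ranked among 10551 genes with a mean of at least 10 CPM. The 3 named for each gene are the highest of these many values over 11 tumors, so a high r comes in part from the selection. For Cst3 they were Txndc9, Ufc1 and Arpc2 (r = 0.99, 0.99 and 0.98). For Ctsz they were AI662270, Hexa and Spi1, with r from 0.97 to 0.98. Hexa encodes a lysosomal hexosaminidase and Spi1 the factor PU.1, though GAGGAAGT was not found in the Ctsz promoter. For Ctss the genes most alike were Eif4e3, Ubd and H2-DMb2 (0.92 each), and for Lgmn Mgat1, Pald1 and the cathepsin gene Ctsf (0.93, 0.93 and 0.92). Ctsb was most like Samsn1, Noct and Ostm1 (0.95, 0.93 and 0.92), and Ctsc most like Trim30a, Lcp2 and Acvrl1 (0.96, 0.94 and 0.94). Ctsk was most like Serpinf1, Crispld2 and Zfp692 (0.88, 0.87 and 0.86), and Ctsl most like Tnfrsf23, Has2 and Rcor2 (0.92, 0.91 and 0.91). Ctsd was most like Repin1, Pfkl and Bcap31 (0.93, 0.93 and 0.92), and Ctsh, with the lowest values, most like Pepd, Spns2 and Actr3 (0.86, 0.86 and 0.83).

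Cell type markers were summed in the same tumors, since macrophages are a known source of most of these proteases. The sum of 12 macrophage markers ran from 3686 to 6550 CPM in KO tumors and from 3196 to 6379 CPM in WT tumors, with KO replicate F highest, as for 5 of the 10 genes, and WT replicate D lowest, also as for 5. At an unadjusted p under 0.05, 4 of the 12 were higher in KO tumors and 0 lower, with a median log2 fold change of 0.25. The 4 were Csf1r, Mertk, Adgre1 and Fcgr1, while Lyz2, Aif1 and Trem2 had log2 fold changes of -0.12, -0.29 and -0.31. The count was 2 with the ribosomal RNA covariate and 8 with the gene length offset.

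Fibroblast markers, 10 in number, summed to between 4559 and 9681 CPM in KO and between 2640 and 9569 CPM in WT tumors, where WT replicate E was the highest. At that level 0 were called by edgeR and 1 by DESeq2, and the median was 0.36. Without WT replicate E, 6 of the 10 were higher, 1 of them at the adjusted threshold, and the median was 0.70, and without KO replicate E 1 was higher. Carcinoma epithelial markers had 3 of 8 lower and 0 higher, with sums from 2725 to 5617 CPM in KO tumors against 3108 to 9488 CPM. That count was 6 with the ribosomal RNA covariate, 0 with the gene length offset, 5 without WT replicate B, and 1 without WT replicates A, B and C, without any single tumor of KO replicates B to F, or without WT replicate A or C. Of the 7 neutrophil markers 5 were higher, and 3 were without KO replicate A, C or D or WT replicate A, C or D. All 6 B cell markers were higher (4 without WT replicates A, B and C), though their sum reached only 35.2 to 106 CPM in KO and 6.34 to 32.4 CPM in WT tumors. Dendritic cell markers had 0 called (1 without KO replicate D and 2 without WT replicate D) and T cell markers 0. Of the 4 acinar markers that could be tested 1 was lower, 3 without KO replicate E and 2 of 8 without WT replicates A, B and C. The part of cell content in the levels of the 10 genes was not tested.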

How the data were processed

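RNA from 6 KO and 5 WT tumors was made into strand-specific libraries and sequenced in paired reads of 151 bases. Per the labels and the study's methods, reads were trimmed with Trimmomatic, aligned to mm10 (GRCm38) with HISAT2 2.1.0 and counted over exons with HTSeq 0.11.2, keeping reads with a mapping quality above 10. The authors deposited raw counts per gene and a normalised signal, which equalled each count divided by 1 factor per library. That signal was used further in a repeat of the ratios to Cst3. Groups and replicate letters were taken from the sample titles.

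The test on counts was edgeR 4.0.16's quasi-likelihood F-test (R 4.3.3; TMM, filterByExpr, Benjamini-Hochberg over 16536 genes, threshold 0.05), on all tumors without covariates. The SE was obtained by dividing the size of the log2 fold change by the root of F. Ratios to Cst3 were compared with an exact permutation test written in Python 3.11.15, and likeness used log2(CPM + 0.5). Alternatives were DESeq2 1.42.0, other filters and size factors, the ribosomal RNA share as covariate, a gene length offset, the replicate letter as block, and leaving out tumors. The edgeR script was tested on simulated data. The count table's library totals gave 3 counts a level of 0.0964 to 0.184 CPM. No pair of libraries of a group agreed within sampling noise. Of the 54232 gene IDs, 54079 matched a GENCODE M21 symbol. All 10 genes are named, with the 2 genes of smallest p in each of 9 pathway lists, the 3 most alike of each gene, and 8 marker lists; a gene of the hydrolase list that this rule names is not reported here, and where a list's further genes are named they were chosen after their values were seen. The 10 genes and the lists were chosen with earlier results of these data known.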

Additional observations from a re-analysis of the deposited data

Results flagged for a closer look

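In 52 sets of 5 or 6 values (10 genes, 8 ratios and 8 marker sums in each group), 3 held a tumor far from the rest of its group, where chance gives about 1 in 20, or 2.6. Ctss in KO replicate F had a log2 CPM of 10.59, against 9.56 to 9.88 in the other KO tumors. In WT replicate E the log2 ratio of Ctsk to Cst3 was -2.36, while WT replicates A to D lay between -4.34 and -4.09. The log2 of the summed acinar marker CPM reached 9.27 in KO replicate E, where the remaining KO tumors lay between 3.07 and 3.78.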

How the results depend on the processing

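Under the other settings, 180 log2 fold changes of the 10 genes kept their direction and side of the threshold, 8 turned and 2 (Ctsc) passed the threshold. Among the 10 genes, edgeR called 0 and DESeq2 called 1 (Ctsc) higher at the adjusted threshold, and leaving out 1 tumor gave 0 to 1; at an unadjusted p under 0.05 edgeR had 1 and, with the gene length offset or without WT replicates A, B and C, 4. Over all genes, the main fit called 3 higher and 0 lower, DESeq2 595 and 900, no expression filter 39 and 6, a minimum of 10 counts in every tumor 0 higher, the length offset 66 and 23, the ribosomal RNA covariate 2 and 1, and the fit without WT replicates A, B and C 4 and 3. Leaving out 1 tumor gave 0 to 608 higher and 0 to 1248 lower (608 and 1248 without WT replicate E, 203 and 651 without WT replicate D, 30 and 2 without KO replicate F). The cause was not tested.

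What the replicate letters stand for is not stated. Same-letter deviations correlated at -0.14 to 0.12, and no tumor of the WT group was closest to its own letter in the KO group. Such correlations cannot show whether a letter marks a shared litter or day. With the letter as a replicate block, 7 genes were called higher and 1 lower, and Ctsc had a log2 fold change of 0.61 (edgeR, adjusted p = 0.301).

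Directions turned in these cases. Ctsz was -0.031 with the replicate block and -0.086 to 0.23 with 1 tumor left out. Cst3 was 0.021 with the ribosomal RNA covariate, 0.076 with the length offset and 0.50 without WT replicates A, B and C, where Ctsd was 0.31. Without those 3 libraries, chosen after seeing the data, the log2 ratios to Cst3 turned to -0.15 (Ctsb), -0.58 (Ctsh), -0.058 (Ctsk) and -0.49 (Ctsl). With the length trend removed from each library the ratios of Ctsh and Ctsl were -0.26 and -0.51. Leaving out 1 tumor moved the Ctsl ratio between -0.15 and 0.35 and the Ctsh ratio between -0.13 and 0.35, and the number of ratios past the threshold between 0 and 5.

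With 6 and 5 tumors, the precision of the 10 genes was set by the spread between tumors, not by depth. Whether the tumors of a group came from separate litters or days is not stated, so p-values measure the spread between these tumors.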
